A study of Mus musculus with 25 samples.

Results

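The AP-1 transcription factors examined here are 8 genes of the 43411 in the count table: Fos, Fosb and Fosl2 of the Fos family, Jun, Junb and Jund of the Jun family, and the related genes Atf3 and Maff. They were taken by symbol from a fixed list, and each symbol matched 1 Ensembl identifier in the table. AP-1 is a dimer of basic leucine zipper (bZIP) proteins that binds DNA. Jun proteins pair with themselves, with Fos proteins or with some ATF proteins, whereas Fos proteins need a Jun partner. Fos, Fosb, Jun, Junb and Atf3 are immediate-early genes, which are transcribed within minutes of a stimulus from factors already present in the cell, while Jund is expressed in most resting cells. In microglia, the resident macrophages of the brain, AP-1 works beside lineage factors at enhancers and takes part in inflammatory gene expression.

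The study sorted microglia from mice in which the Alzheimer's disease risk gene Bin1 was deleted in neurons, and asked how the microglia differ. CD11b+ CD45med cells were sorted from brain without cerebellum and olfactory bulbs, and mRNA was sequenced from 23 mice aged 3 months. Homo mice (n = 10, 5 females and 5 males) were Bin1flox/flox with Thy1-Cre, Het mice (n = 7, 4 females and 3 males) were Bin1flox/wt with Thy1-Cre, and WT mice (n = 6, 2 females and 4 males) were Bin1flox/wt without Cre. The WT controls thus also carried 1 floxed allele, and each mouse was 1 library. The transgene drives Cre from the Thy1 promoter in forebrain excitatory neurons, so the microglia were not the cells meant to lose Bin1. All WT and Het mice carry animal numbers in the 0200s. Homo mice F1, F2, F3, M1, M2 and M3 (F, female; M, male) carry numbers in the 0300s, and Homo F4, F5, M4 and M5 numbers in the 0400s, so genotype and number range cannot be told apart. Sort dates and library batches are not given in the sources used here.

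Total counts ran from 10812969 to 16734846 per library (median 13477985) and overlapped between the genotypes. Bin1 itself was at 600 to 814 CPM (counts per 1000000) in WT, 629 to 747 in Het and 327.6 to 673 in Homo microglia. Although these ranges overlapped, Bin1 was called lower in Homo than in WT mice (log2 fold change -0.60 ± 0.12, edgeR adjusted p = 0.0017). It was also lower than in Het mice (-0.53 ± 0.11, edgeR adjusted p = 0.0015), but there the fold was below the threshold for a call. The cause of the lower Bin1 level in these microglia was not tested. The summed level of 10 microglial markers was 60658 to 86825 CPM in WT, 56519 to 75768 in Het and 50366 to 59054 in Homo mice, whereas 6 lymphocyte markers summed to less than 1 CPM in every mouse. Summed neuronal markers were lower in all Homo mice (4.37 to 8.71 CPM) than in any WT (12.0 to 34.9) or Het mouse (12.1 to 31.6). Summed monocyte and neutrophil markers were 4.71 to 40.3 CPM in WT, 4.43 to 54.4 in Het and 12.6 to 101 in Homo mice, and within Homo mice 31.2 to 101 in the 0300s and 12.6 to 53.3 in the 0400s. Among these, the monocyte receptor gene Ccr2 was higher in Homo than in WT mice by 1.28 ± 0.23 (log2 fold change ± SE, edgeR adjusted p = 8.1e-04). Of the tested markers, 1 of 10 microglial (Itgam), 3 of 5 neuronal (Snap25, Nrgn and Gad1) and 1 of 4 oligodendrocyte markers (Mobp) were called lower in Homo than in WT mice. In the same comparison 1 of 6 monocyte and neutrophil markers was called higher, and no border macrophage, astrocyte or endothelial marker was called. Of the 8 listed neuronal markers, 5 passed the filter on low counts. Nrgn passed it only through WT and Het mice, where it was higher, and Gad1 mainly so (median 0 CPM in Homo mice). The calls of Nrgn and Gad1 thus add no support. Mrc1, Cldn5 and Nkg7, which define border macrophages, endothelial cells and cytotoxic lymphocytes, were listed at 0 in every mouse. The part of these markers in the AP-1 results was not tested. In RNA from sorted populations, a change in the mix of cells and a change in RNA per cell cannot be told apart.

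Fos, Jun and Atf3 are shown with the 100 bases before their RefSeq start, because each stretch holds a bZIP-type motif. Fos and Jun were far higher in Homo F1, F2, M1 and M2 than in all other mice. Atf3 was above every WT and Het mouse in all 10 Homo mice. The stretches read 5′ to 3′ on the gene's strand (GRCm38.p6), with matches to TGACGT, TGACATCA or TATAA on either strand in capitals. Fos lies on chromosome 12, plus strand, chr12:85473790-85473889. Jun lies on chromosome 4, minus strand, chr4:95052223-95052322. Atf3 lies on chromosome 1, minus strand, chr1:191183334-191183433, the RefSeq start being inside the longer gene of the GENCODE annotation.
Fos: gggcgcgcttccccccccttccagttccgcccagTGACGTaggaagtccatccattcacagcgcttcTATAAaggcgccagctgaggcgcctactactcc
Jun: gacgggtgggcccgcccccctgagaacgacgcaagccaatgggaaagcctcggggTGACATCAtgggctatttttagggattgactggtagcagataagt
Atf3: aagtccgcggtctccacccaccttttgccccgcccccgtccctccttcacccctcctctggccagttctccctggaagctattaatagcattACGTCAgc

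The Fos stretch held TGACGT, the core of the cyclic AMP response element, 66 bases before the start (first base at -66) and TATAA at -33. The Jun stretch held TGACATCA, a variant AP-1 site, at -45, and the Atf3 stretch held TGACGT on the opposite strand at -8. In the 250 bases before the start, searched on both strands in 32851 RefSeq windows of this length, TGACGT was found in 6.47% of windows, TGACATCA in 2.93% and TATAA in 22.8%. The full palindrome TGACGTCA, which contains TGACGT, was found in 1.55% of windows and, among the 8 genes, in 1 of the 3 windows of Maff, while TGACATCA was also in another of the Maff windows. The AP-1 site TGANTCA (6.75% of windows) and the CArG box (1.47%) were in none of the members' windows, and no listed motif was in those of Fosb, Fosl2, Junb or Jund. Sequence farther upstream was not searched, so sites of these genes outside the 250 bases would be missed.

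Across all 23 mice, the members fell into 3 patterns. Fos, Fosb, Jun, Junb and Jund were at a high level in 4 Homo mice of the 0300s (F1, F2, M1 and M2) and near the level of the other genotypes in most of the remaining Homo mice. Atf3 was higher in all 10 Homo mice than in any other mouse. Fosl2 and Maff overlapped between the genotypes. Of the 6 members with enough counts to test, 5 were higher in Homo than in WT mice (adjusted p under 0.05 and fold over 1.5), where 1.65% of the 12908 genes tested were called higher, and the same 5 members were called against Het mice, where 2.32% of genes were called higher.

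**Figure D1:**
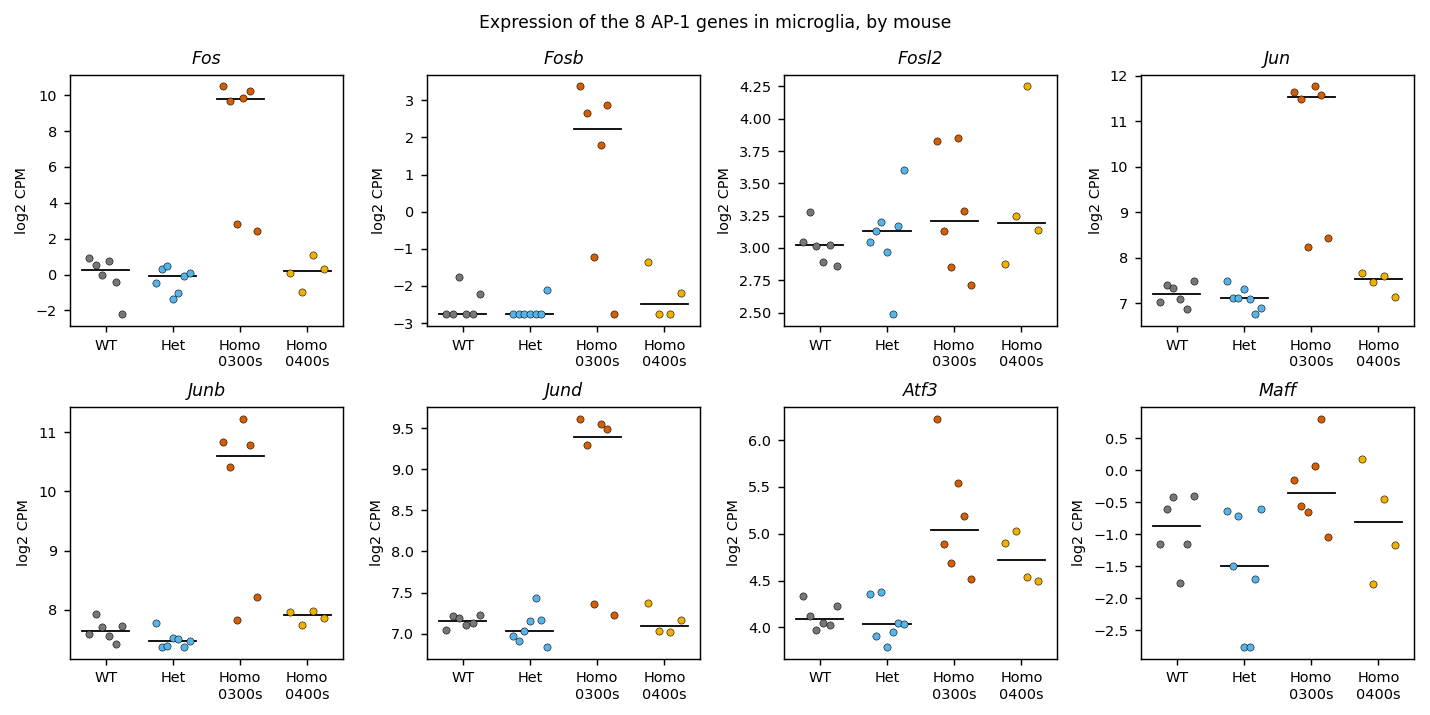
Each point is 1 mouse and each bar the median of its group; the y axis is log2 CPM (with a prior count, so that mice at 0 are drawn at the bottom), and its range differs between panels. Homo mice are split by the animal numbers of the labels. Fos, Fosb, Jun, Junb and Jund show 4 mice of the 0300s far above all others, while all 10 Homo mice lie above the others for Atf3.

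Fos encodes the best known inducible AP-1 subunit, which activates transcription as a dimer with Jun. Its gene spans chr12:85473890-85477273 (ENSMUSG00000021250). In WT microglia Fos was at 0.0677 to 1.73 CPM (median 1.07), from 1 to 23 counts per mouse, and in Het microglia at 0.25 to 1.26 CPM (median 0.796). In the Homo mice of the 0300s it was 1459 CPM in F1, 824 in F2, 926 in M1 and 1207 in M2, and 7.0 in F3 and 5.32 in M3. In those of the 0400s it was 0.915 CPM in F4, 0.363 in F5, 1.97 in M4 and 1.11 in M5. Thus 4 mice stood far above the rest, F3 and M3 were also above all 13 WT and Het mice, and the mice of the 0400s, M4 apart, lay within the range of those genotypes. The log2 fold change of Homo against WT was 8.75 ± 1.84 (adjusted p = 0.0030) and against Het 9.17 ± 1.77 (adjusted p = 8.3e-04).

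Fosb encodes a second Fos subunit, with a long-lived splice form in neurons, and was close to the detection limit in most mice. WT mice had 0 to 2 counts and Het mice 0 or 1. Homo F1 had 137 counts (10.3 CPM), F2 69 (6.12 CPM), M1 56 (3.35 CPM) and M2 98 (7.12 CPM). The other 6 Homo mice had between 0 and 4 counts, so Fosb was plainly detected in the same 4 mice that were high for Fos. It was below the filter on low counts in the 3-genotype fit. Without the filter its log2 fold change was 5.81 ± 1.28 (adjusted p = 0.0041) against WT.

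Fosl2 encodes Fra-2, a Fos-related subunit that lacks the strong activation domain of Fos. It was at 7.10 to 9.53 CPM in WT, 5.45 to 12.0 in Het and 6.40 to 18.9 in Homo mice. The highest Homo values were 18.9 in M4, 14.3 in M1 and 14.0 in F1, and 3 of the 10 Homo mice exceeded every WT and Het mouse. M4 belongs to the 0400s and had 1.97 CPM of Fos, so the mice high for Fosl2 were not all those high for Fos. Fosl2 did not pass the test against WT (0.39 ± 0.20, adjusted p = 0.22) or Het (0.27 ± 0.19, adjusted p = 0.33).

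Jun encodes c-Jun, the partner of Fos and itself a target of Jun kinases, from a gene of 1 exon (ENSMUSG00000052684, chr4:95049034-95052222). WT mice had 116 to 179 CPM (median 148) and Het mice 107 to 179 (median 138). In the Homo 0300s Jun was 3197 CPM in F1, 2875 in F2, 3495 in M1 and 3061 in M2, with 301 in F3 and 343 in M3. In the 0400s it was 203 CPM in F4, 175 in F5, 193 in M4 and 140 in M5. All 6 mice of the 0300s and 2 of the 4 of the 0400s were above all WT and Het mice, F3 and M3 being between the high mice and the rest. The log2 fold change was 3.23 ± 0.70 against WT (adjusted p = 0.0040) and 3.33 ± 0.66 against Het (adjusted p = 0.0011).

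Junb encodes a Jun subunit that can restrain c-Jun and is also inducible. It was at 171 to 245 CPM in WT and 165 to 220 in Het mice. Homo F1 had 1818 CPM, F2 1355, M1 2391 and M2 1761, while F3 had 226 and M3 298. The mice of the 0400s had 250, 213.9, 251 and 233 CPM in F4, F5, M4 and M5. In all, 7 of the 10 Homo mice were above every WT and Het mouse, F4 and M4 lying just above the highest of these. Junb rose by 2.12 ± 0.51 (log2) against WT (adjusted p = 0.0081) and 2.27 ± 0.49 against Het (adjusted p = 0.0020).

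Jund encodes the Jun subunit of resting cells, from a gene of 1 exon on chr8:70698949-70700616. Its level was 132 to 150 CPM in WT and 114 to 173 in Het mice. Homo F1 had 783 CPM, F2 627, M1 747 and M2 716, and the other 6 Homo mice had 129 to 166 CPM. So 4 of 10 Homo mice were above all WT and Het mice and 6 above all WT mice, while F3 (164) and M3 (149), which were above all WT and Het mice for Fos and Jun, lay within the range of Het mice for Jund. The log2 fold change was 1.41 ± 0.40 against WT (adjusted p = 0.021) and 1.47 ± 0.38 against Het (adjusted p = 0.0070). When only Homo and WT mice entered the fit, Jund did not pass (adjusted p = 0.058).

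The Jund value depends on how reads were shared with an overlapping gene. Gm11175, annotated on the opposite strand, shares 877 exonic bases with Jund, and 48.3% of the 50-base words in Jund transcripts also occur, as reverse complement, in those of Gm11175. The library kit does not mark strand, so reads from the shared part cannot be assigned to either gene. Gm11175 was at 14.3 to 21.9 CPM in WT and Het mice and at 125, 98.4, 118 and 103 CPM in Homo F1, F2, M1 and M2, against 15.6 to 25.8 in the other 6 Homo mice. Jun shares 5.83% of its words with the antisense gene Junos, which was under 2 CPM in every mouse, and Junb shares 5.76% with Prdx2, which was at 58.0 to 84.2 CPM over all 23 mice and did not pass the test (adjusted p = 0.78, Homo against WT).

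Atf3 encodes a stress-induced bZIP protein that binds as a homodimer or with Jun proteins and often represses transcription. It was at 15.6 to 20.1 CPM in WT (median 16.9) and 13.7 to 20.6 in Het mice (median 16.2). In the Homo 0300s it was 74.8 CPM in F1, 29.5 in F2, 25.6 in F3, 46.5 in M1, 36.4 in M2 and 22.8 in M3, and in the 0400s 29.6 in F4, 32.5 in F5, 23.0 in M4 and 22.4 in M5. All 10 Homo mice were therefore above all 13 others, which held for 0.403% of the genes tested. The highest Atf3 values were those of F1, M1 and M2, which were also high for Fos. Homo F5, however, with 0.363 CPM of Fos, had more Atf3 than F2, with 824 CPM of Fos. The log2 fold change was 0.94 ± 0.20 against WT (adjusted p = 0.0037) and 1.04 ± 0.19 against Het (adjusted p = 5.4e-04).

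Maff encodes a small Maf protein with a bZIP domain but no activation domain. Its level was at most 1.60 CPM, with 0 to 9 counts in WT and Het mice and 2 to 22 in Homo mice. Homo M2 had the most (22 counts), and 4 of the 10 Homo mice were above all WT and Het mice. Without the filter on low counts the log2 fold change against WT was 0.68 ± 0.61 (adjusted p = 0.59), so a difference was not detectable at this depth.

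**Figure D2:**
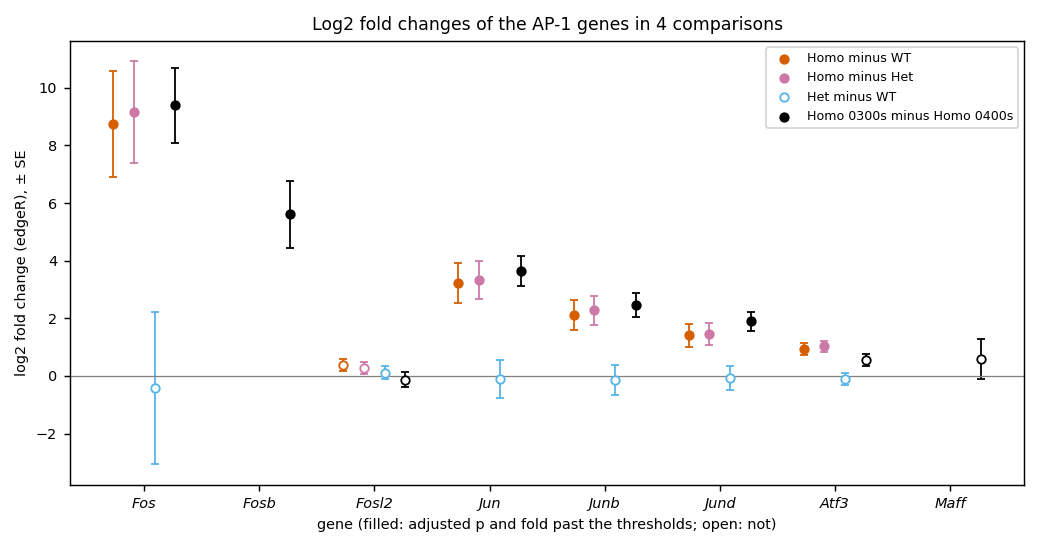
Points are log2 fold changes from edgeR with bars of 1 SE, filled where the adjusted p and the fold passed the thresholds and open where not; Fosb and Maff have a value only in the comparison within Homo mice. Fos, Jun, Junb and Jund lie above 0 against both genotypes and between the number ranges, while Atf3 is filled only against WT and Het, and all values of Het minus WT lie near 0.

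The number of members called differed between tests. In an exact permutation test over mice on log2 CPM (two-sided, all 8008 splits of 16 mice, adjusted over all genes), Atf3 passed against WT (difference of means 0.88, adjusted p = 0.027), and 1.06% of genes were called higher. Fos (difference 4.69, p = 0.026, adjusted p = 0.13), Jun (2.10, adjusted p = 0.083), Junb (1.43, adjusted p = 0.084) and Jund (0.96, adjusted p = 0.23) did not pass in this permutation test. Against Het mice (19448 splits) Atf3 again was the member that passed (0.93, adjusted p = 0.0057), where 1.91% of genes were called higher. With limma-voom, Jun, Junb and Atf3 passed against WT, where 1.31% of genes were called higher, while Fos (log2 fold change 4.93 ± 5.45, adjusted p = 0.61) and Jund (adjusted p = 0.10) did not. Leaving out any 1 of the 23 mice kept all 5 calls against WT and against Het in edgeR.

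No change was detectable in any member between Het and WT mice. No member and none of the 12908 genes was called in edgeR (0.0%), with 998 genes at an unadjusted p under 0.05, and DESeq2 and limma-voom called 0 genes too. The log2 differences were -0.42 ± 2.65 for Fos, -0.11 ± 0.67 for Jun, -0.15 ± 0.51 for Junb, -0.06 ± 0.41 for Jund, -0.10 ± 0.22 for Atf3 and 0.12 ± 0.22 for Fosl2. The spread was estimated over all 23 mice, in which Homo mice varied most (SD of log2 CPM of Fos 4.83 in Homo, 1.16 in WT and 0.69 in Het). Counts of Fos were also low, at 1 to 23 in WT and 3 to 19 in Het mice. The part of each in the wide errors of Fos and Jun was not tested.

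The Homo mice were then compared by the number range of their labels (6 of the 0300s against 4 of the 0400s), in a fit with 4 groups in which all 8 members passed the filter. Fos was higher in the 0300s by 9.40 ± 1.31 (log2, adjusted p = 7.4e-04), Fosb by 5.60 ± 1.18 (adjusted p = 0.025), Jun by 3.64 ± 0.51 (adjusted p = 7.4e-04), Junb by 2.46 ± 0.42 (adjusted p = 0.0039) and Jund by 1.90 ± 0.33 (adjusted p = 0.0046). These 5 calls among 8 members compare with 0.314% of 13373 genes called higher in the 0300s. Among them, Fosb passed the filter only through Homo F1, F2, M1 and M2, the mice in which it was high, so its call adds no support. Maff, which was not called, passed the filter only through Homo F1, F4, M1 and M2, its highest mice. Atf3 (0.55 ± 0.22, adjusted p = 0.36), Maff (0.59 ± 0.70, adjusted p = 0.87) and Fosl2 (-0.13 ± 0.25, adjusted p = 0.94) did not pass. Fosb did not pass without Homo F5 (adjusted p = 0.10), M4 (0.094) or M5 (0.11), and fell below the filter without F1, F2, M1 or M2, while the 4 other calls were kept without any 1 Homo mouse. Permuting all 210 splits of these 10 mice exactly gave p = 0.0095 for Fos and Jun, 0.024 for Junb and 0.019 for Jund, and no gene passed after adjustment over all genes, the smallest p this design allows being 0.0048.

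Against WT mice, the members also differed by range. In the same fit 6 of 8 members were called higher in the Homo mice of the 0300s (1.81% of all genes), Fos by 9.49 ± 1.09, Fosb by 6.52 ± 1.10, Jun by 3.88 ± 0.44, Junb by 2.69 ± 0.37, Jund by 1.90 ± 0.29 and Atf3 by 1.13 ± 0.20. Here too Fosb passed the filter only through mice of the 0300s in which it was high, so its call adds no support. In the 0400s no member was called, while 1.19% of all genes were called higher. There the log2 differences were 0.09 ± 1.69 for Fos, 0.24 ± 0.44 for Jun, 0.23 ± 0.39 for Junb and 0.00 ± 0.32 for Jund. Atf3 differed by 0.58 ± 0.22 (adjusted p = 0.12), but when the 0300s were left out of the fit altogether, so that the spread came from the other mice, it was called (0.59 ± 0.13, adjusted p = 0.0096). Both comparisons use the same 6 WT mice.

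The effect of genotype (Homo minus WT) did not differ detectably between the sexes, with 0 of 12908 genes past an adjusted p of 0.05 and 644 at an unadjusted p under 0.05. The difference between females and males was -0.92 ± 4.08 for Fos, -0.11 ± 1.31 for Jun and 0.18 ± 0.42 for Atf3 (log2, adjusted p of 0.995 or more for the 6 members tested). The 4 mice with the highest Fos were 2 females and 2 males. The WT group held 2 females, which limits this comparison.

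To compare the subunits with each other, CPM was divided by exonic length (CPM per kb). In WT mice Junb (median 87.2, range 74.1 to 106 CPM per kb) and Jund (85.7, 79.4 to 90.1) overlapped and stood above Jun (46.5, 36.4 to 56.2), which stood above Atf3 (7.82, 7.24 to 9.31). Fosl2 followed (0.823, 0.734 to 0.985) and at its lowest lay next to the highest value of Fos (median 0.456, up to 0.735), while Maff (0.158) overlapped with Fos, and Fosb was at 0 in 4 of 6 mice. The Fos family thus made up 0.314 to 0.893% of the summed Fos and Jun family level in the 13 WT and Het mice, with 111 to 317 Jun family units per Fos family unit.

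In the 4 Homo mice with high Fos this composition differed from that of all other mice. The Fos family share was 21.6% in F1, 15.9% in F2, 13.3% in M1 and 19.3% in M2, and the Jun family exceeded it 3.63, 5.30, 6.53 and 4.18 times. The summed level was 2886, 2218, 2978 and 2670 CPM per kb in these mice, against 185 to 250 in WT and Het mice and 227.4 to 329.2 in the other 6 Homo mice. Within the sum, Jun took 34.7 to 40.6% in these 4 mice and 32.0% and 32.7% in F3 and M3, where it was 17.5 to 24.6% in WT and Het mice and 18.9 to 24.2% in the 0400s. F3 and M3 thus had a Jun share closer to the 4 high mice than to the 0400s, at a summed level (295 and 329.2 CPM per kb) close to that of the other mice. Jund went the other way in share, from 32.9 to 45.9% in WT and Het mice to 15.0 to 16.9% in the 4 high mice, although its CPM was higher there.

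**Figure D3:**
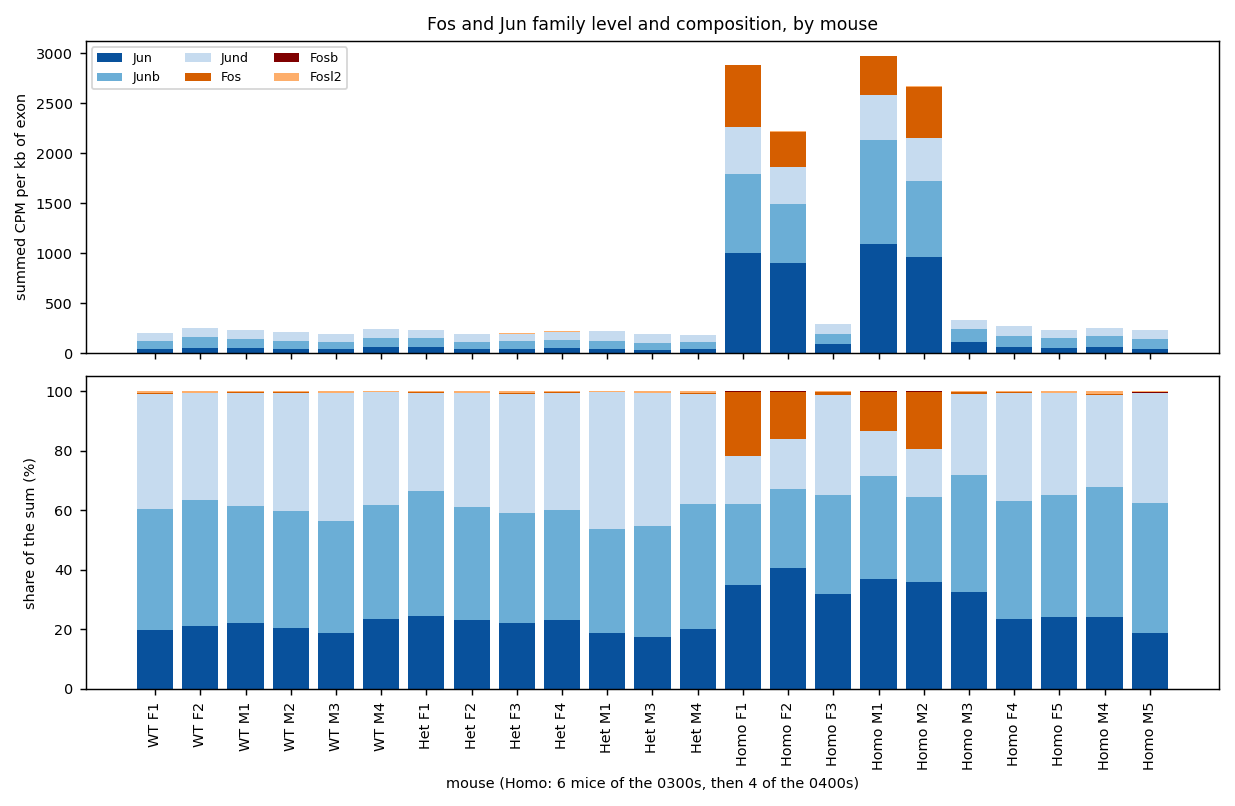
Bars are mice in the order WT, Het, Homo 0300s and Homo 0400s; the upper panel gives the summed CPM per kb of exon of 6 Fos and Jun family genes and the lower panel each gene's share of that sum in percent. In Homo F1, F2, M1 and M2 the sum is 2218 to 2978 and Fos is a visible share, whereas Junb, Jund and Jun make up nearly all of the sum in the other mice.

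The genes with the pattern most like each member were taken by the mean absolute difference, over 23 mice, of log2 CPM scaled from 0 to 1, among 11727 other genes. For Fos they were Dusp1 (distance 0.0755), Gm11175, H3f3b, Ier2, Ccl4, Hist1h2bg, Zfp36, Egr1 and Txnip (0.100), where the median gene was at 0.387. Dusp1, a MAP kinase phosphatase, was at 973, 440, 607 and 785 CPM in Homo F1, F2, M1 and M2 and at 1.67 to 11.3 CPM in the other 19 mice. Egr1, a zinc finger immediate-early factor, was at 3491, 1577, 2965 and 2833 CPM in these mice. It was at 12.7 to 22.9 CPM in the other 6 Homo mice and 6.0 to 12.0 in WT and Het mice, so that for Egr1, as for Atf3, all 10 Homo mice were above the 13 others.

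For Jun the nearest genes were Ier2 (0.0431), Zfp36 and Egr1, for Junb Ier2 (0.0391), Ppp1r15a and Egr1, for Jund Gm11175 (0.0444), Egr1 and Zfp36, and for Fosb Egr1 (0.0673), Zfp36 and Ppp1r15a. Zfp36 encodes tristetraprolin, which destabilises mRNAs, and Ier2 is an immediate-early gene. Atf3 was farther from Fos (0.134) and Jun (0.140) than Fos was from Jun (0.0840). Fosb, however, was also far from Fos (0.141), though nearer to Jun (0.0901), so the distance to Fos does not set Atf3 apart. The nearest genes of Atf3 were the chemokine gene Ccl4 (0.0958), Cited2 and the cytokine gene Osm. Fosl2 was nearest to Bcl3 (0.115), Adamts1 and AI506816, and Maff to Jrk (0.115), Tnf and Ppp1r3d. These distances describe the same 23 libraries and share their depth and scaling.

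**Figure D4:**
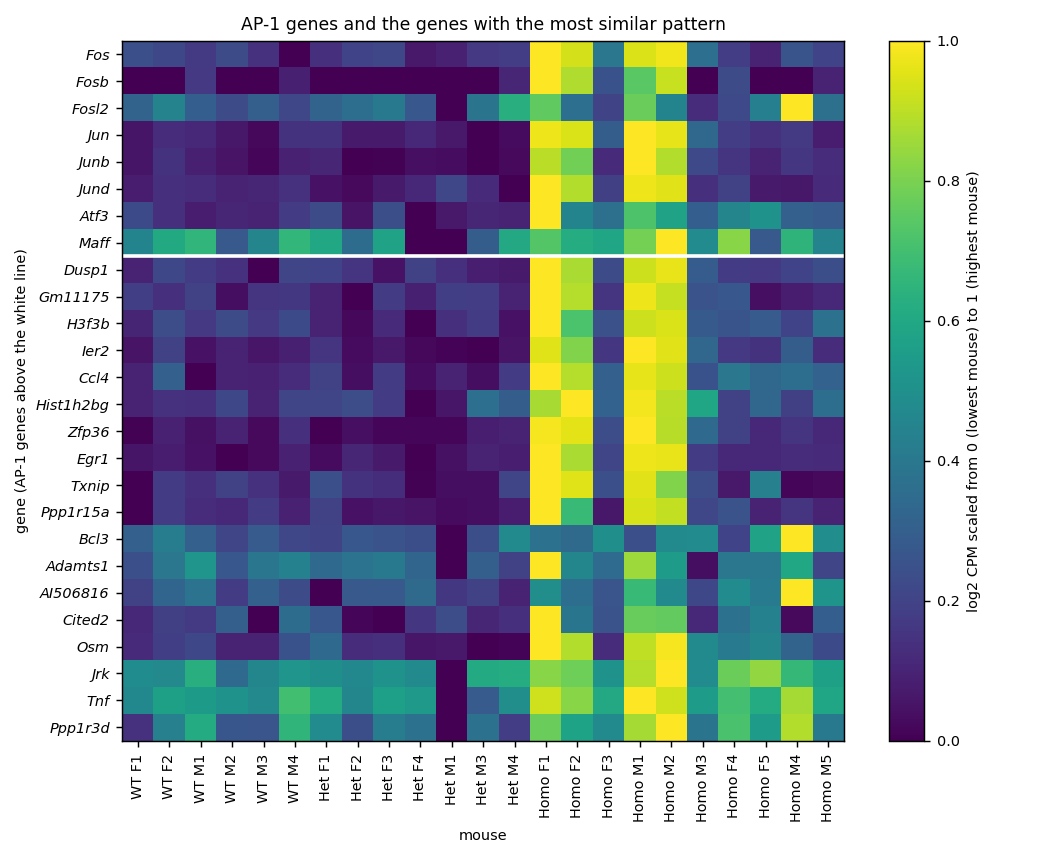
Rows are genes and columns mice, with colour giving log2 CPM scaled from 0 in the lowest to 1 in the highest mouse of each gene. The AP-1 members are above the white line and the genes with the most similar patterns below it. Homo F1, F2, M1 and M2 form the bright columns for Fos, Fosb, Jun, Junb and Jund and for their nearest genes, whereas Fosl2 and Maff with theirs are spread over more mice.

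Other genes of the pathway were read from 5 lists, in Homo against WT mice, where 1.65% of all genes were called higher, 1.75% lower and the median log2 fold change was 0.01. Of 23 tested genes that encode other bZIP proteins, 1 was called higher and none lower (median 0.10). This was Jdp2 (0.74 ± 0.19, adjusted p = 0.013), whose protein represses AP-1, at 4.19 to 9.62 CPM in WT and 7.47 to 16.1 in Homo mice. Fosl1, the remaining Fos gene, did not reach the filter and was at most 1.00 CPM. Of 21 tested kinases and serum response factors that act upstream of AP-1, 1 was called higher and none lower (median 0.05), namely Map3k8, a kinase of the ERK pathway (0.98 ± 0.20, adjusted p = 0.0025).

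Genes that limit AP-1 signalling or Fos and Jun mRNA and protein were tested in 12 cases, of which 3 were called higher and none lower (median 0.12). These were Dusp1 (5.89 ± 1.28, adjusted p = 0.0039), Dusp2, another MAP kinase phosphatase (2.64 ± 0.67, adjusted p = 0.011), and Zfp36 (2.13 ± 0.48, adjusted p = 0.0055). Of 13 other immediate-early genes tested, 8 were called higher and none lower (median 1.29). Egr1 rose by 7.02 ± 1.44, Ier2 by 4.45 ± 0.94, Ier3 by 2.84 ± 0.62 and Egr2 by 1.95 ± 0.42, and Socs3, an inhibitor of cytokine signalling, by 1.29 ± 0.29 and Myc by 0.74 ± 0.17 (log2, adjusted p of 0.0051 or less).

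Of 15 tested genes known as AP-1 targets in other cells, 6 were called higher and 2 lower (median 0.75). Ccl2, a monocyte chemokine, rose by 3.36 ± 0.54 (adjusted p = 3.6e-04). It was above all WT and Het mice (0.767 to 2.15 CPM) in all 10 Homo mice, at 3.16 to 32.8 CPM in the 0300s and 4.03 to 12.4 in the 0400s. Il6 (1.05 ± 0.24, adjusted p = 0.0057), Plaur (0.75 ± 0.21, adjusted p = 0.019) and Cd44 (4.27 ± 0.85, adjusted p = 0.0020) were also called higher. Cd44 was at most 0.152 CPM in WT, 1.25 in Het and 2.22 in Homo mice, and did not pass against Het (0.99 ± 0.58, adjusted p = 0.22). Cd44 passed the filter on low counts only with the Homo mice, in which it was highest. Its call, 1 of the 6, thus adds no support. The growth factor gene Hbegf (-0.73 ± 0.13, adjusted p = 9.3e-04) and the cyclin gene Ccnd1 (-0.90 ± 0.24, adjusted p = 0.016) were called lower.

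Ccnd1 was at 33.9 to 40.5 CPM in the 4 mice of the 0400s, and in the 0300s at 40.6 in F1, 118 in F2, 47.4 in F3, 103 in M1, 96.9 in M2 and 32.8 in M3, against 87.5 to 129 in WT and Het mice. The ranges overlapped and their difference did not pass (1.00 ± 0.25, adjusted p = 0.085). Between the ranges, no gene of the target list was called, nor of the bZIP and kinase lists. In contrast, 2 phosphatase or turnover genes (Dusp1 by 6.25 ± 0.97 and Zfp36 by 2.43 ± 0.36) and 5 of 14 other immediate-early genes tested there were called higher in the 0300s.

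**Figure D5:**
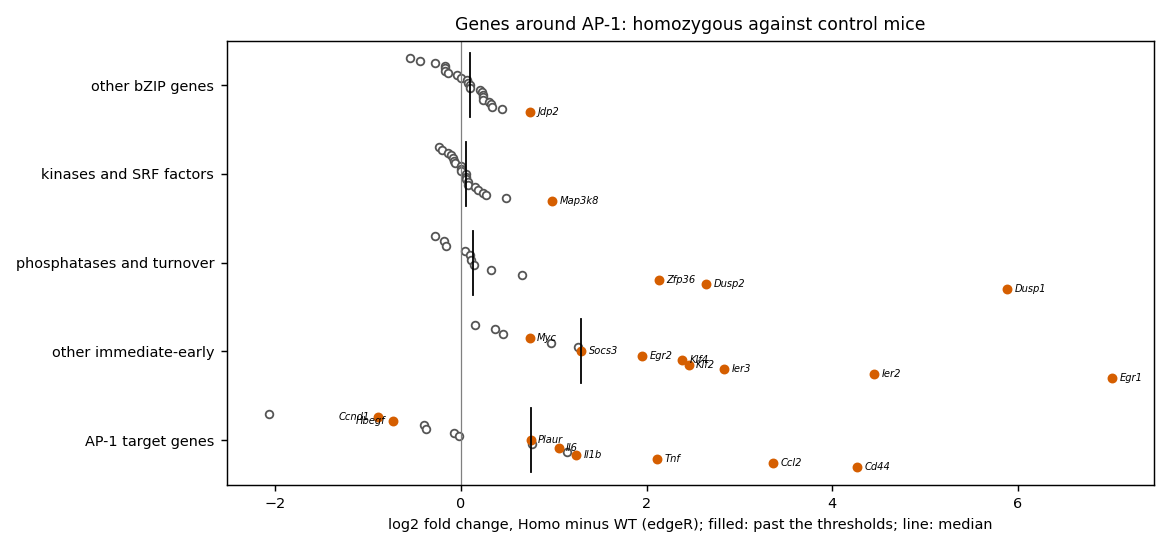
Points are genes of 5 lists and the x axis is the edgeR log2 fold change of Homo minus WT mice; filled points passed the thresholds and are named, and the black lines are list medians. Egr1, Dusp1 and Ier2 lie farthest to the right, while most other bZIP and kinase genes lie near 0, and 2 of the filled target genes lie below 0.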

How the data were processed

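Microglial RNA was amplified with the SMARTer Ultra Low kit and sequenced as single-end reads. According to the study's methods, the authors aligned reads to mm10 with Ensembl gene models and deposited RSEM expected counts per gene for 23 mice; the labels also name DESeq2. Of 25 labelled samples, 2 were not analysed here. Identifiers were matched to GENCODE vM21 (GRCm38, the same build), which gave 42929 of 43411 genes a symbol.

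Expected counts were rounded to whole numbers, filtered with filterByExpr, scaled by TMM and fitted in edgeR 4.0.16 (R 4.3.3) by quasi-likelihood with 3 genotypes and sex as terms. P-values were adjusted over all genes by the Benjamini-Hochberg method. Genes were called at an adjusted p under 0.05 and a fold over 1.5. The filter removed Fosb and Maff. SE is the log2 fold change divided by the square root of F. CPM used TMM library sizes of the filtered genes, and log2 CPM a prior count of 2. The alternatives were DESeq2 1.42.0, limma 3.58.1 (voom), exact permutation tests over mice (two-sided), other scalings, filters and terms, number ranges and each mouse left out. The fit with 4 groups against WT was chosen after seeing the data. The edgeR, DESeq2 and limma-voom fits of Homo against WT and the exact permutation test were tested on simulated data, and the other steps were not. In those simulations changed genes were shifted in every Homo mouse, so a gene high in only some Homo mice was not simulated. The members, lists, number ranges and comparisons were chosen with earlier results of these data known.

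All 8 members are named. From each list the up to 6 genes with the smallest p among those called in Homo against WT are named, and the plot of the lists names all called genes. Likeness was computed for tested genes with mean log2 CPM of 0 or more. Of the 10 genes nearest to Fos, 1 is not reported here. Rows can be listed at 0 in every mouse (18653 genes), as Mrc1 and Mapkapk2 were, which can be a failed estimate. Mice within a genotype are separate animals.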

Additional observations from a re-analysis of the deposited data

Results flagged for a closer look

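Junb in Het mice was singled out because 1 mouse lay apart from the other 6. Het F1 was at 220 CPM and the next mouse at 184, a gap of 0.614 of the whole log2 range of the group. Fosb in Het mice was singled out in the same way, since Het M4 had 1 count (0.0845 CPM) and the other 6 had none, so that the gap was 1.0 of the range and rested on a single count. Chance singles out about 1 in 20 groups, and 24 groups were examined.

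The comparison of the 0300s with the 0400s reported above singles out 5 members whose difference from WT depends on the range, since the WT mice are the same on both sides. The values were 9.40 for Fos, 5.60 for Fosb, 3.64 for Jun, 2.46 for Junb and 1.90 for Jund on the log2 scale, the call of Fosb being lost without several single mice, and higher in 6 of 6 mice of the 0300s than in any mouse of the 0400s for Fos and Jun. Summed monocyte and neutrophil markers were at 31.2 to 101 CPM in the 0300s and 12.6 to 53.3 in the 0400s, which overlap, 0 of 6 tested markers were called between the ranges in edgeR (none at an unadjusted p under 0.05), and their part in this was not tested. The number range cannot be told apart from whatever else distinguishes these mice.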

How the results depend on the processing

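In Homo against WT mice, 5 members were called in edgeR, 5 with DESeq2, 3 with limma-voom and 1 in the exact permutation test. In edgeR, 1 (Atf3) was called with Homo mice of the 0400s alone, and 0 for the 0400s in the fit with 4 groups, which was added later. Against Het mice 5 were called in edgeR and 5 with DESeq2, but 4 with limma-voom, 1 in the permutation test and 1 with the 0400s alone. Between the ranges 5 members and 49 genes were called and 0 members and 0 genes in the permutation test, in which the smallest adjusted p was 0.51. With 210 splits the smallest p that test allows is 0.0048, and 1044 of 12908 genes were at p under 0.05. It could thus hardly call any gene after adjustment. The cause of the other lost calls was not tested. All genes called in Homo against WT numbered 439 (213 higher, 226 lower), 1645 with no fold threshold, 283 in the permutation test and 515 (347 higher, 168 lower) with total counts, under which the median gene was at 0.11 and not 0.01. Against Het they numbered 854, 2936 with no fold threshold, 542 with the 0400s alone and, with total counts, 824 (402 higher, 422 lower against 299 and 555). Leaving out each mouse gave 5 to 5 members and 334 to 474 genes against WT, 5 to 5 and 660 to 944 against Het, 0 between Het and WT, and 4 to 5 members and 30 to 92 genes between the ranges (75 without Homo F1, 81 without F3, 78 without F4, 92 without M3 and 30 without M5). The Fos difference between Het and WT was 0.11 with limma-voom, against -0.42. No paired analysis was possible because the animal numbers do not pair mice across genotypes.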
